A study of Mus musculus with 48 samples.

Results

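The genes described here are 7 genes of liver glycogen metabolism, chosen by name: Gys2, Ugp2, Gbe1, Pygl, Ppp1r3b, Ppp1r3c and Ppp1r3g. All 7 of them were measured, by 9 probes, among the 20486 genes that could be analysed. Their mRNA was read in the liver of male mice on one-colour Agilent microarrays, with 1 array per mouse. The p110αhep-/- mice (LKO in the labels) lack the PI3K catalytic subunit p110α in hepatocytes, because both Pik3ca alleles are floxed and 1 copy of an albumin-Cre transgene, which is active in hepatocytes, deletes part of the gene there. The p110αhep+/+ controls (LWT) are floxed littermates without Cre, so both genotypes carry the floxed alleles and only one carries Cre. From 12 weeks of age the mice received a CTRL diet or a high-fat diet (HFD, with 60% of its calories from fat) for 12 weeks. They were killed at ZT16, either fed ad libitum or after 24 h without food. This gave 8 groups of 6 mice and 48 arrays.

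Glycogen is the branched glucose store of the liver, built when glucose is plentiful and broken down between meals. Glucose reaches it through glucose-6-phosphate, glucose-1-phosphate and UDP-glucose. Ugp2 (UDP-glucose pyrophosphorylase) makes UDP-glucose, Gys2 (the liver glycogen synthase) adds its glucose to the growing chains, and Gbe1 (the branching enzyme) places the branch points. Pygl (the liver glycogen phosphorylase) releases glucose-1-phosphate from the chains. Ppp1r3b, Ppp1r3c and Ppp1r3g encode subunits that bring protein phosphatase 1 to glycogen, where it removes phosphate from the synthase and the phosphorylase. Insulin, which signals through PI3K, favours storage. The activity of these enzymes is set largely by phosphorylation and allosteric ligands, which arrays do not measure.

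Pygl, Gbe1 and Ugp2 are shown first by their promoters because their mRNAs fell together in fasted mice, and Ppp1r3g because its mRNA varied most between the groups. The sequences are windows of 300 bases that reach from the upstream side over the start of transcription in RefSeq (GRCm38.p6), on the strand of the gene, where capitals mark ATTGG or its reverse complement CCAAT. The positions are chr12:70227634-70227933 (minus strand) for Pygl, chr16:70313699-70313998 (plus strand) for Gbe1, chr11:21371218-21371517 (minus strand) for the more upstream of the 2 starts listed for Ugp2, and chr13:35967656-35967955 (plus strand) for Ppp1r3g.
Pygl: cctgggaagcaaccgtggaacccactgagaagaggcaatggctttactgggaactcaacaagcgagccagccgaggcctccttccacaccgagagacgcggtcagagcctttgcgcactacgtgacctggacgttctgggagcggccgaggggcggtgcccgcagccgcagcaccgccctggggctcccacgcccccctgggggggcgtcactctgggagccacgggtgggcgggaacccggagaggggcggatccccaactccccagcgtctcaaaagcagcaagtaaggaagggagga
Gbe1: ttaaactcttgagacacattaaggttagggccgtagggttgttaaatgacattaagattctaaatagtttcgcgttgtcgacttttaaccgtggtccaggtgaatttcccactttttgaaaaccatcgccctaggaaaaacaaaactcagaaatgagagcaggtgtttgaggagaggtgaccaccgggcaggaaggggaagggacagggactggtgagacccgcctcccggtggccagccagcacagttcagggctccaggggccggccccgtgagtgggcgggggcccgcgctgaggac
Ugp2: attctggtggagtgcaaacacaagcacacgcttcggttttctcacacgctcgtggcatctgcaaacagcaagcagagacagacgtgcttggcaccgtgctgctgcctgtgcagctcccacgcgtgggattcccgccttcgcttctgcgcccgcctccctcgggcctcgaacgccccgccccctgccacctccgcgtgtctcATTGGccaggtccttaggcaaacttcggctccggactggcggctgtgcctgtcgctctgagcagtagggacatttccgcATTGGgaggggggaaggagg
Ppp1r3g: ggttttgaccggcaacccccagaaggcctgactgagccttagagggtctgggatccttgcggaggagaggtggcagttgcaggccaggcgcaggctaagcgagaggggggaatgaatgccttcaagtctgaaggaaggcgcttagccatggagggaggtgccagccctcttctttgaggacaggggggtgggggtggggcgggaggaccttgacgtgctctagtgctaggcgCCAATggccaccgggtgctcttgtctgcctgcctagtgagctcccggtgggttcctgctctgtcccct
The search was made on both strands for GTAAACA (a forkhead motif), CACGTG (an E-box), TGACGTCA (a cAMP response element) and ATTGG (the reverse of the CCAAT box). Of these letters, the Pygl and Gbe1 windows and that of the second Ugp2 start (chr11:21370580-21370879, minus strand) hold none. The Ugp2 window printed holds ATTGG at -49 and at 30, counted from 0 at the start of transcription, and the Ppp1r3g window holds its reverse complement at -18. The table covers 5 of the 7 genes, not Gys2 and Ppp1r3b. Among 32851 such windows, 37.4% hold ATTGG on either strand, 7.15% CACGTG, 3.65% GTAAACA and 1.79% TGACGTCA. The Ppp1r3c window holds CACGTG at -104, ATTGG at -124 and CCAAT at 35.

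All 9 probes were well above background on all 48 arrays. The probe that represents each gene, its brightest, lies at chr6:142371157-142371216 for Gys2, chr11:21221975-21222034 for Ugp2, chr16:70569840-70569899 for Gbe1, chr12:71291855-71291914 for Pygl, chr8:36451115-36451174 for Ppp1r3b, chr19:36806457-36806516 for Ppp1r3c and chr13:36061999-36062058 for Ppp1r3g (mm9, as the scanner files give it). Ppp1r3g has the dimmest of these probes, with a raw median signal between 69 and 2367.5, against 12705 to 50695 for Pygl. Levels are normalized log2 signals. Signals of different probes are not on a common scale, so each gene is compared only with itself.

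The arrays had 50.1% to 57.4% of their probes well above background and no saturated spot, and came from 6 slides that each carried all 8 groups once, washed in 2 batches of 3 slides. The Pik3ca probe was not lower in p110αhep-/- mice (log2 fold change 0.39 on CTRL diet and 0.58 on HFD when fed, limma adjusted p = 0.000419 and 2.99e-07), so the deletion is not checked by it (whether it lies in the deleted part was not determined), and directions between genotypes take the labels as given. Replicate 2 of fed p110αhep+/+ mice on CTRL diet and replicate 3 of fed p110αhep-/- mice on HFD lay nearer to the mean of fed p110αhep-/- mice on CTRL diet than to their own group. The called values of the 7 genes that rest on them are given again without both, with some values that were not called. Those of the other pathway genes are not. Over the 18 comparisons of the 7 genes, leaving out both lost 0 of 29 calls and gained 4.

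All 8 hepatocyte markers were measured, with Alb at a mean of 18.89, and their summed level, which the most abundant of them dominate, had group medians of 20.46 to 20.53. Single hepatocyte genes still moved, with Tat called higher on fasting in 3 of 4 comparisons (0.6 to 0.88), Hnf4a in the other (0.63), and Cps1 called higher in p110αhep-/- mice in 3 of 4 genotype comparisons (0.68 to 1.36). Tat was also called higher in p110αhep-/- mice when fed on CTRL diet (0.73), and Cps1 lower on HFD in fed p110αhep+/+ mice (-0.82). Of 6 skeletal muscle markers, Ckm and Acta1 did not pass the filter and the other 4 had means of 5.86 to 6.7. One of them, Tnnt3, was called lower in p110αhep-/- mice on fasting on CTRL diet (-0.67) and on HFD when fed (-0.73). Of 5 adipocyte markers, Adipoq did not pass the filter, Cfd was called lower in p110αhep-/- mice in 4 of 4 genotype comparisons (-5.56 to -4.11) and higher on HFD in 4 of 4 diet comparisons. Car3, which is abundant here at a mean of 16.48, was called lower in p110αhep-/- mice in 3 genotype comparisons and lower on fasting in p110αhep-/- mice on both diets, while Adrb3 was called higher in p110αhep-/- mice in 3 genotype comparisons (0.71 to 1.21). On HFD Car3 was called higher in fed p110αhep-/- mice (0.78). The summed level of the 4 adipocyte markers measured, which Car3 dominates, was 16.59 to 17.71 in the arrays of p110αhep+/+ mice, 16.13 to 16.42 in fed and 14.53 to 15.63 in fasted p110αhep-/- mice on CTRL diet, and 16.26 to 17.46 in fed and 14.95 to 15.73 in fasted p110αhep-/- mice on HFD. Of the bile duct markers, 5 of 5 were measured, and the range of their summed level was 9.13 to 10.14 in the arrays of p110αhep-/- mice and 10.5 to 12.4 in those of p110αhep+/+ mice, with Spp1 called lower in p110αhep-/- mice in 4 of 4 comparisons. Spp1 dominates this sum, with a mean of 10.04 against 5.5 to 7.36 for the others. Krt19 was called lower in p110αhep-/- mice in fed mice on HFD (-0.89) and in fasted mice on both diets (-0.73 and -0.73). Krt7, Epcam and Sox9 were not called between genotypes. Spp1 was also called lower on fasting in p110αhep-/- mice on both diets (-0.71 and -0.66), with Krt19 on CTRL diet (-1.05), and higher on HFD in fed and fasted p110αhep+/+ mice (0.66 and 0.99). The fibroblast collagens Col1a1 and Col3a1 were called in 3 of 4 fasting comparisons (lower in fasted mice), in 3 of 4 genotype comparisons (lower in p110αhep-/- mice) and in both diet comparisons of p110αhep+/+ mice (higher on HFD), and the summed level of the 6 stellate cell and fibroblast markers, which Dcn dominates (mean 14.73), was 14.36 to 15.53 over the 48 arrays. Lrat was called lower on fasting in p110αhep+/+ mice on CTRL diet (-0.68) and in fed p110αhep-/- against p110αhep+/+ mice on CTRL diet (-0.65). Of 5 endothelial markers, Lyve1 was called higher on fasting in p110αhep-/- mice on both diets (1.07 and 0.82) and lower in fed p110αhep-/- than in fed p110αhep+/+ mice on both diets (-1.13 and -0.82), and Clec4g was called higher in fasted p110αhep-/- than in fasted p110αhep+/+ mice on HFD (0.68). The median log2 fold change of the 5 between genotypes in fed mice went the other way from Lyve1, at 0.17 on CTRL diet and 0.12 on HFD. Their summed level was 13.4 to 14.14 in p110αhep+/+ and 13.9 to 14.26 in p110αhep-/- mice. Of 5 pancreas markers 2 passed the filter, and Cela1 was called lower on fasting in p110αhep-/- mice on both diets (-0.66 and -0.75), in fasted p110αhep-/- mice on CTRL diet against p110αhep+/+ mice (-0.89) and on HFD in fed p110αhep+/+ mice (-0.69), with a summed level of 12.31 to 14.3. None of the 5 Kupffer cell and macrophage markers measured was called in the 12 comparisons between groups, and their summed level was 13.96 to 15.94. The part of these cells in the results below was not tested, and in bulk liver fewer cells of a type and less RNA per cell cannot be told apart.

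**Figure D1:**
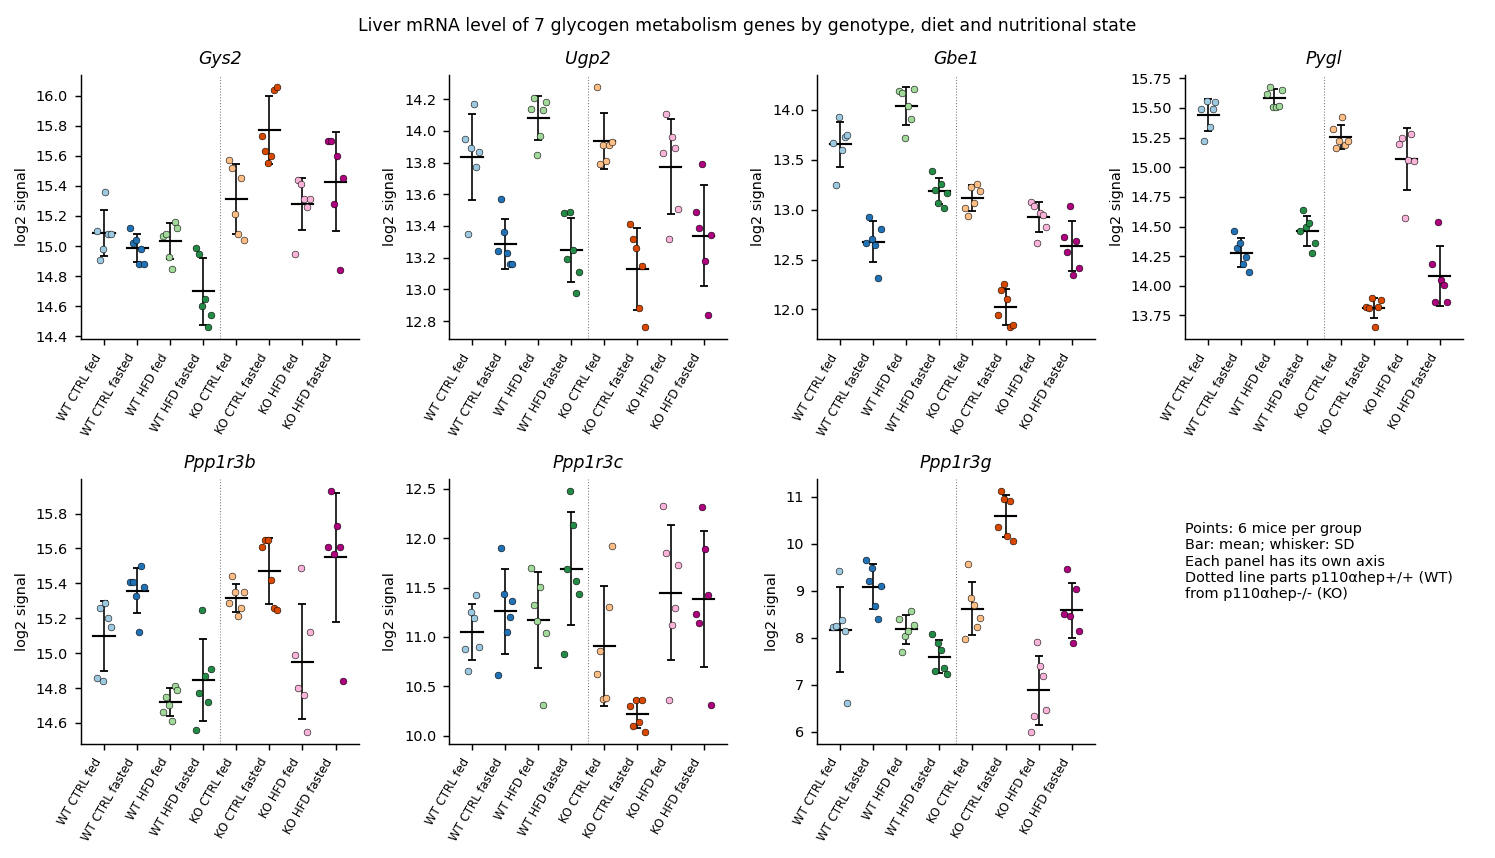
Normalized log2 signal (vertical axis, own scale in each panel) of the 7 genes in each of 48 livers, with 6 mice per group, the mean as a bar and the SD as a whisker (WT, p110αhep+/+; KO, p110αhep-/-). Pygl is lower in every fasted group than in its fed group with no overlap, and Ppp1r3g is highest in fasted p110αhep-/- mice on CTRL diet, at 10.6.

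Fasting lowered the mRNA of enzymes on both sides of glycogen turnover. The phosphorylase Pygl was called lower in fasted mice of both genotypes on both diets, the branching enzyme Gbe1 in 3 of these 4 comparisons and Ugp2 in 2, and Ppp1r3g was called higher in 3. A difference is given as a log2 fold change from a limma fit over all 48 arrays with array weights, so it can differ slightly from the difference between group means, and the limma p values carry a Benjamini-Hochberg adjustment over the 30793 probes kept. Called means here an adjusted p of 0.05 or less together with a difference of over 1.5-fold. Of the 7 genes, 3 were called between fasted and fed p110αhep+/+ mice on CTRL diet, where 5.45% of all genes were, 4 in p110αhep-/- mice on CTRL diet (7.07% of all genes), 3 in p110αhep+/+ mice on HFD (4.71%) and 3 in p110αhep-/- mice on HFD (5.9%). The median log2 fold change of the 7 was -0.1, -0.61, -0.56 and -0.18 in the same order, against medians over all genes of 0, -0.001, 0.004 and 0. The p values set each difference against the spread of mice within groups, pooled over the 8 groups. A p that misses the threshold does not show that levels were alike.

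Pygl was the most regular of the 7 genes. In p110αhep+/+ mice on CTRL diet its level was 15.22 to 15.56 when fed (median 15.49) and 14.12 to 14.46 when fasted (median 14.28). No fasted mouse reached the lowest fed mouse, and the log2 fold change was -1.2 (SE 0.0794, limma adjusted p = 1.04e-15), a 2.29-fold lower level. In p110αhep-/- mice on CTRL diet the level ran from 15.16 to 15.42 when fed (median 15.22) and from 13.65 to 13.9 when fasted (median 13.82), a log2 fold change of -1.45 (SE 0.081, limma adjusted p = 5.06e-18). This was the largest fall of Pygl, 2.73-fold, but the difference between the genotypes in the fasting change, -0.25, did not pass the test (SE 0.113, limma adjusted p = 0.219) and was -0.23 without the 2 arrays named above. On HFD the level was 15.51 to 15.68 in fed (median 15.57) and 14.28 to 14.64 in fasted p110αhep+/+ mice (median 14.48), a log2 fold change of -1.09 (SE 0.0768, limma adjusted p = 5.93e-15). In p110αhep-/- mice on HFD it was 14.57 to 15.28 when fed (median 15.13) and 13.86 to 14.54 when fasted (median 14.03), a log2 fold change of -1.06 (SE 0.0889, limma adjusted p = 5.78e-12). Here the fed and fasted mice came closest, because 1 fed mouse, replicate 3, stood at 14.57 below the other 5. Without it and replicate 2 of fed p110αhep+/+ mice on CTRL diet, the changes were -1.1 on HFD in p110αhep-/- mice and -1.22 on CTRL diet in p110αhep+/+ mice. Within the first washing batch the 4 changes lay between -1.41 and -1.05, and within the second between -1.51 and -0.78, each past the test.

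Gbe1 fell on fasting in 3 of the 4 comparisons. On CTRL diet its level was 13.25 to 13.93 in fed p110αhep+/+ mice (median 13.7) and 12.31 to 12.93 in fasted ones (median 12.69), a log2 fold change of -1.04 (SE 0.0985, limma adjusted p = 3.65e-11). In p110αhep-/- mice on CTRL diet it was 12.94 to 13.26 when fed (median 13.13) and 11.82 to 12.25 when fasted (median 12.02), a log2 fold change of -1.08 (SE 0.1, limma adjusted p = 1.28e-11). In p110αhep+/+ mice on HFD it was 13.72 to 14.21 when fed (median 14.11) and 13.02 to 13.39 when fasted (median 13.18), a log2 fold change of -0.88 (SE 0.0952, limma adjusted p = 1.55e-09). In these 3 comparisons the fed and fasted mice did not overlap, and the level was about 1.84-fold to 2.11-fold lower in fasted mice. In p110αhep-/- mice on HFD the level was 12.67 to 13.08 when fed (median 12.96) and 12.34 to 13.04 when fasted (median 12.63), and the mice overlapped. The change of -0.32 there passed the adjusted p (SE 0.11, limma adjusted p = 0.0245) but not the fold threshold, and was -0.34 without the 2 arrays named above, where the change of p110αhep+/+ mice on CTRL diet was -1.09. The fasting change of p110αhep-/- mice was less negative on HFD than on CTRL diet by 0.76 (SE 0.149, limma adjusted p = 0.000693), where 2.88% of all genes were called for this difference and Gbe1 was the 1 gene of the 7. Without the 2 arrays named above it was 0.74, and within the washing batches it was 0.72 and 0.9 (limma adjusted p = 0.0105 and 0.0963). Both other Gbe1 probes, at chr16:70361835-70361894 and chr16:70569433-70569492, were called lower in the same 3 fasting comparisons, with log2 fold changes of -1.14, -0.96 and -1.08 for the dimmer probe and -0.95, -1.02 and -0.67 for the brighter. The 3 changes of the main probe in the washing batches lay between -1.19 and -0.87 and between -1.18 and -0.82.

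Ugp2 moved the same way, by less than Gbe1 except in p110αhep-/- mice on HFD (-0.49 against -0.32). Its level on CTRL diet was 13.35 to 14.17 in fed p110αhep+/+ mice (median 13.88) and 13.16 to 13.57 in fasted ones (median 13.24), with overlap. The log2 fold change of -0.58 (SE 0.116, limma adjusted p = 0.000131) was 1.49-fold, just under the threshold, and it passed without replicate 2 (-0.64), 5 (-0.59) or 6 (-0.59) of the fed mice, without replicate 2 (-0.63) or 3 (-0.6) of the fasted mice, and without the 2 arrays named above (-0.63, limma adjusted p = 2.45e-05). In p110αhep-/- mice on CTRL diet the level was 13.79 to 14.28 when fed (median 13.91) and 12.76 to 13.41 when fasted (median 13.2), a log2 fold change of -0.78 (SE 0.118, limma adjusted p = 1.24e-06) with no overlap. In p110αhep+/+ mice on HFD it was 13.85 to 14.21 when fed (median 14.13) and 12.98 to 13.49 when fasted (median 13.22), a log2 fold change of -0.82 (SE 0.112, limma adjusted p = 2.86e-07) with no overlap. In p110αhep-/- mice on HFD, where the levels were 13.32 to 14.11 (median 13.87) and 12.84 to 13.79 (median 13.36), the mice overlapped and the change of -0.49 (SE 0.13, limma adjusted p = 0.00343) stayed under the fold threshold. It was -0.6 without replicate 3 of the fasted mice, past the threshold, and -0.54 without the 2 arrays named above. Within the washing batches this change was -0.75 and -0.12, the others -0.83 to -0.54 and -0.78 to -0.68. Between genotypes Ugp2 did not pass the adjusted p in any of the 4 comparisons, with log2 fold changes of -0.23 to 0.09 and 95% confidence intervals within -0.48 and 0.34 (-0.19 to 0.09 without the 2 arrays named above). Between diets its 4 log2 fold changes were -0.09 to 0.22 and did not pass either.

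Pygl, Gbe1 and Ugp2 also varied together from mouse to mouse. Over the 48 arrays Pearson's r was 0.86 for Pygl with Ugp2, 0.86 for Pygl with Gbe1 and 0.73 for Ugp2 with Gbe1. After each group's mean was taken off, r was 0.56, 0.54 and 0.55. Both arrays named above were the lowest of their group for all 3 genes, and without them r within groups fell to 0.42, 0.45 and 0.43, with 0.88, 0.86 and 0.73 over the other 46 arrays. These points share arrays, slides and normalization, and r is given as a description. The other 18 pairs of the 7 genes had r between -0.26 and 0.43 within groups, and between -0.27 and 0.42 without these 2 arrays.

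**Figure D2:**
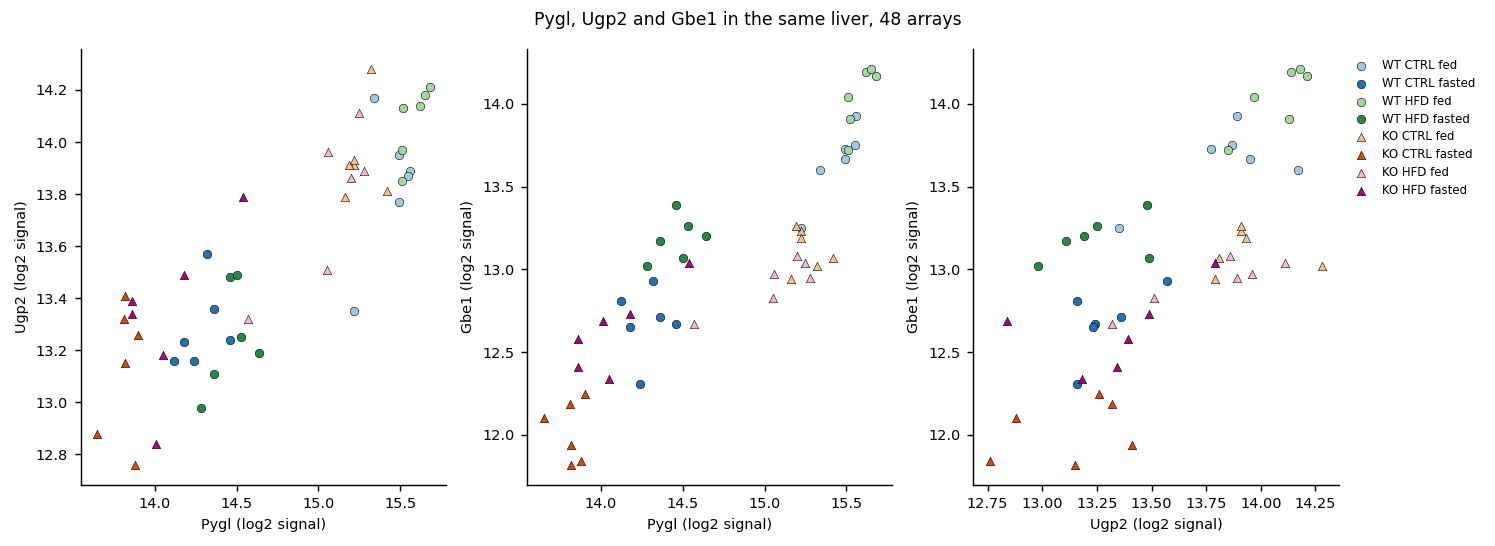
Normalized log2 signals of Pygl, Ugp2 and Gbe1 plotted against each other, 1 point per mouse (circles, p110αhep+/+; triangles, p110αhep-/-; dark, fasted; light, fed). The points rise from fasted mice at the lower left to fed mice at the upper right, and Pearson's r is 0.86 for Pygl with Ugp2, 0.86 for Pygl with Gbe1 and 0.73 for Ugp2 with Gbe1.

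Between genotypes, the 7 genes did not move as a block. None of the 7 was called by limma in fed mice on CTRL diet, where 3.72% of all genes were and 3 of the 7 had an unadjusted p under 0.05. In fed mice on HFD 2 of the 7 were called, both lower in p110αhep-/- mice (6.24% of all genes). In fasted mice 4 were called on CTRL diet, 2 higher and 2 lower (3.24%), and 3 on HFD, all higher (6.54%). With the adjusted p alone, the counts were 1, 3, 5 and 5. The share of all genes that passed the adjusted p alone was not counted, so these counts cannot be set against it. The median log2 fold change of the 7 lay between -0.23 and 0.09, against 0.007 to 0.033 over all genes.

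Gbe1 was lower in p110αhep-/- mice in all 4 comparisons by the adjusted p, and called in 2. On HFD in fed mice it was 12.67 to 13.08 in p110αhep-/- and 13.72 to 14.21 in p110αhep+/+ mice, with a gap between the genotypes and a log2 fold change of -1.1 (SE 0.101, limma adjusted p = 1.8e-11). This 2.15-fold difference was the largest between genotypes for an enzyme of the group. It was -1.14 and -1.08 within the washing batches and -1.08 without the 2 arrays named above, and all 3 probes were called lower. In fed mice on CTRL diet the difference was -0.57 (SE 0.101, limma adjusted p = 5.39e-05), a 1.48-fold change under the fold threshold. It passed without replicate 3 (-0.61), 5 (-0.6) or 6 (-0.59) of the p110αhep-/- mice or replicate 2 (-0.62) of the p110αhep+/+ mice, and was -0.62 without the 2 arrays named above. In fasted mice on CTRL diet it was called at -0.61 (SE 0.0974, limma adjusted p = 7.73e-06) with no overlap, a 1.52-fold change that fell under the fold threshold without replicate 1 (-0.58), 5 (-0.56) or 6 (-0.57) of the p110αhep-/- mice or replicate 2 (-0.55) of the p110αhep+/+ mice. In the single washing batches it was -0.68 and -0.51 (limma adjusted p = 0.000204 and 0.0519), and neither of the other Gbe1 probes was called (-0.28 and -0.54). On HFD in fasted mice the value was -0.55 (SE 0.105, limma adjusted p = 5.93e-05), not called, and it passed without replicate 1 (-0.59) or 3 (-0.65) of the p110αhep-/- mice. Batch by batch it was -0.74 and -0.35, and the dimmer probe had 0.26 (limma adjusted p = 0.271). On HFD the fasting change was less negative in p110αhep-/- mice than in p110αhep+/+ mice by 0.55 (SE 0.146, limma adjusted p = 0.0241), under the fold threshold. The brighter of the other probes did not pass (0.42, limma adjusted p = 0.113), the dimmer was called (0.91), and in the single washing batches the main probe had 0.4 and 0.73, which did not pass (limma adjusted p = 0.309 and 0.219). It was 0.53 without the 2 arrays named above, and it was called without replicate 3 (0.61) or 5 (0.59) of fed or replicate 1 (0.59) of fasted p110αhep+/+ mice, or without replicate 4 (0.62) or 6 (0.61) of fasted p110αhep-/- mice.

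Gys2, the synthase, was higher in p110αhep-/- mice when they were fasted. On CTRL diet fasted p110αhep-/- mice were at 15.55 to 16.06 (median 15.68) and fasted p110αhep+/+ mice at 14.88 to 15.12 (median 15). The genotypes were apart in every mouse, with a log2 fold change of 0.73 (SE 0.104, limma adjusted p = 8.19e-07), a 1.66-fold higher level. On HFD the fasted mice were at 14.84 to 15.7 (median 15.52) and 14.46 to 14.99 (median 14.62), which overlapped, with a log2 fold change of 0.74 (SE 0.112, limma adjusted p = 1.49e-06). Within the washing batches the difference was 0.74 and 0.72 on CTRL diet and 0.55 and 0.87 on HFD, of which 0.55 was under the fold threshold. In fed mice the difference was 0.21 on CTRL diet (limma adjusted p = 0.175) and 0.26 on HFD (limma adjusted p = 0.0658), and neither passed, with 0.18 and 0.25 without the 2 arrays named above. The fasting change of Gys2 was 0.43 in p110αhep-/- mice on CTRL diet (limma adjusted p = 0.00159) and -0.1 in p110αhep+/+ mice (limma adjusted p = 0.517), and on HFD it was 0.16 (limma adjusted p = 0.331) and -0.32 (limma adjusted p = 0.0162). The difference between these changes was 0.52 (SE 0.15, limma adjusted p = 0.0379), under the fold threshold, and it was 0.59 and called without replicate 3 of fasted p110αhep-/- mice on CTRL diet, and 0.55 without the 2 arrays named above. On HFD the same difference was 0.48 (SE 0.155, limma adjusted p = 0.0782), and 0.6 and called without replicate 5 of fasted p110αhep-/- mice on HFD, and 0.49 without the 2 arrays named above. For these differences between fasting changes, 1.31% of all genes were called on CTRL diet, with 0 of the 7 by limma (4 at an unadjusted p under 0.05), and 1.37% on HFD, with 1 of the 7. The order of the 8 groups had the 4 p110αhep-/- groups at the top (15.77, 15.43, 15.31 and 15.28) and the 4 p110αhep+/+ groups below (15.08, 15.03, 14.98 and 14.7), and the ranges of every pair of neighbours in this order overlapped.

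Pygl passed the adjusted p between genotypes in 3 of the 4 comparisons without reaching the fold threshold. Its log2 fold change was -0.44 in fed mice on HFD, -0.47 in fasted mice on CTRL diet and -0.41 in fasted mice on HFD (limma adjusted p = 4.49e-05, 1.4e-05 and 0.000198), and the genotypes did not overlap in the first 2 of these. In fed mice on CTRL diet it was -0.22 (limma adjusted p = 0.0523). Without the 2 arrays named above this value was -0.24 and passed (limma adjusted p = 0.0203), so that all 4 comparisons passed, and the value of fed mice on HFD was -0.4. Within the first washing batch the 4 values lay between -0.55 and -0.15, and within the second between -0.5 and -0.19. HFD was accompanied by a higher Pygl level in fasted p110αhep-/- mice (0.28, limma adjusted p = 0.027), and the fasting change of these mice differed between the diets by 0.39 (SE 0.12, limma adjusted p = 0.0357), both under the fold threshold. The latter was 0.35 without the 2 arrays named above (limma adjusted p = 0.0447), and in fasted p110αhep+/+ mice Pygl was then higher on HFD by 0.22 (limma adjusted p = 0.0392, against 0.21 and 0.0617 with all arrays).

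**Figure D3:**
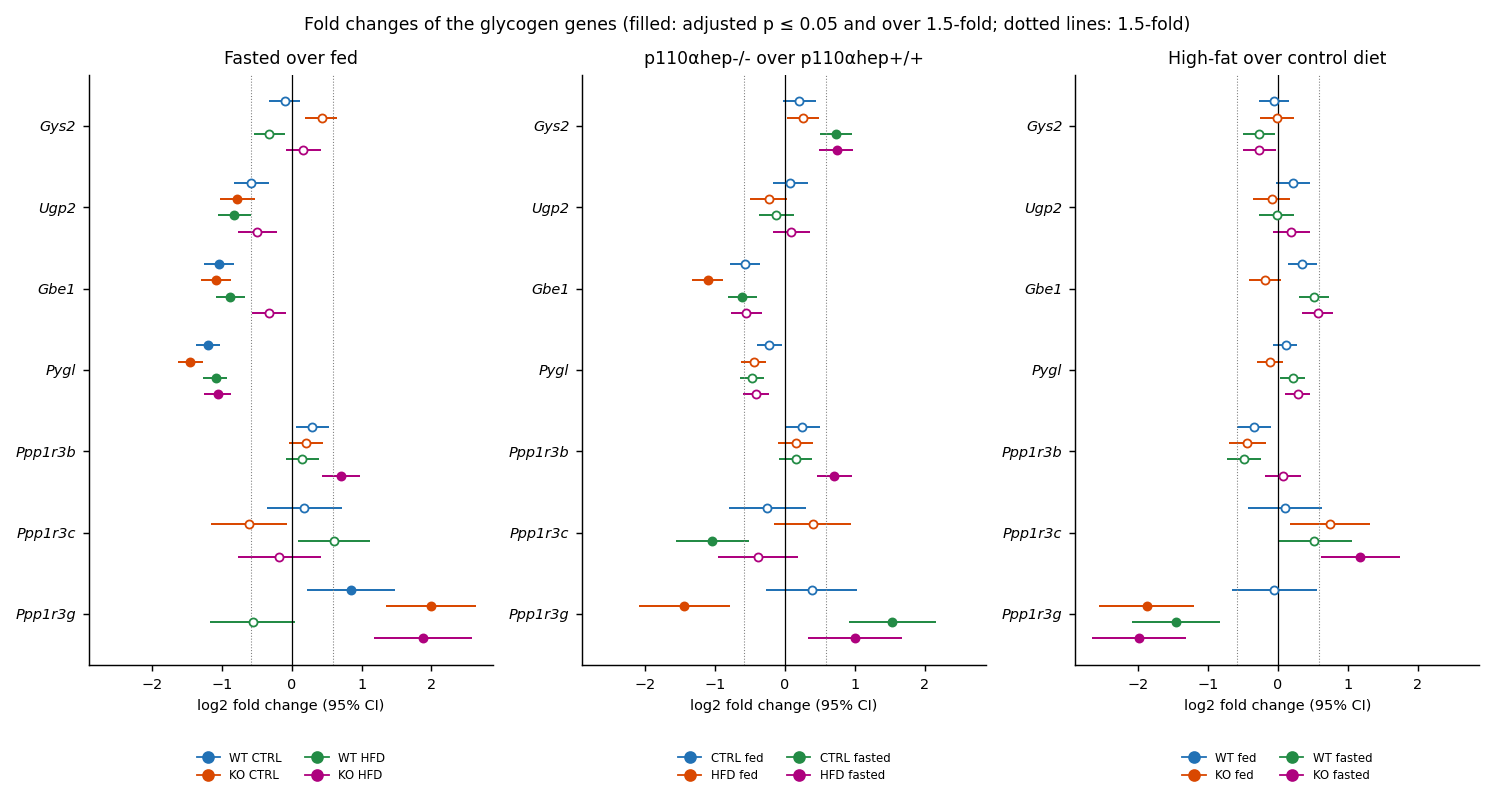
Log2 fold changes with 95% confidence intervals (horizontal axis) of the 7 genes for fasted over fed mice, p110αhep-/- over p110αhep+/+ mice and HFD over CTRL diet, where filled points passed an adjusted p of 0.05 and a 1.5-fold change (dotted lines). The fasting changes of Pygl, Gbe1 and Ugp2 lie left of 0 in all 4 comparisons, and those of Ppp1r3g lie between -0.56 and 2.

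Ppp1r3g, one of the phosphatase 1 targeting subunits, had the widest range of the 7 genes. Its group means ran from 6.89 to 10.6, a spread of 3.71 that is at the 99.7th percentile of all genes, against 2.01 for Gbe1, 1.77 for Pygl, 1.47 for Ppp1r3c, 1.07 for Gys2, 0.95 for Ugp2 and 0.83 for Ppp1r3b. It was called in 9 of the 12 comparisons between groups. The highest group was fasted p110αhep-/- mice on CTRL diet, with 10.07 to 11.13 (median 10.64), above every other mouse of the study. Fasted p110αhep+/+ mice on CTRL diet followed, with 8.4 to 9.65 (median 9.17). Fed p110αhep-/- mice on CTRL diet had 7.98 to 9.57 (median 8.55), fasted p110αhep-/- mice on HFD 7.89 to 9.46 (median 8.48), fed p110αhep+/+ mice on HFD 7.69 to 8.56 (median 8.2) and fed p110αhep+/+ mice on CTRL diet 6.62 to 9.42 (median 8.24). Fasted p110αhep+/+ mice on HFD were at 7.23 to 8.09 (median 7.55) and fed p110αhep-/- mice on HFD at 6 to 7.92 (median 6.83). Apart from the top group, neighbours in this order overlapped. Fed p110αhep+/+ mice on CTRL diet were the most scattered group, with replicate 3 at 9.42, replicate 6 at 6.62 and the other 4 between 8.14 and 8.38.

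Fasting raised Ppp1r3g in p110αhep-/- mice on both diets. The log2 fold change was 2 on CTRL diet (SE 0.311, limma adjusted p = 1.9e-06), a 3.99-fold rise with no overlap between fed and fasted mice, and 1.88 on HFD (SE 0.342, limma adjusted p = 4.38e-05), a 3.69-fold rise in which 1 fed mouse, replicate 3, overlapped the fasted mice. Without that mouse and replicate 2 of fed p110αhep+/+ mice on CTRL diet the latter was 1.98. In p110αhep+/+ mice on CTRL diet the rise of 0.85 (SE 0.306, limma adjusted p = 0.0306) depended on single mice and on the fit. It was 0.77 with the slide as a block and 0.85 when only these 2 groups were fitted, and neither passed the adjusted p. It was 0.8 without the 2 arrays named above and passed (limma adjusted p = 0.0419). It was 0.82 and 0.5 without replicate 5 and 6 of the fed mice, and 0.75, 0.79 and 0.72 without replicate 1, 2 and 3 of the fasted mice (limma adjusted p = 0.0553 to 0.176), and 1.02 and 0.53 within the washing batches, none of which passed. In p110αhep+/+ mice on HFD the change was -0.56 (SE 0.296, limma adjusted p = 0.162). The fasting change on HFD was more positive in p110αhep-/- than in p110αhep+/+ mice by 2.45 (SE 0.452, limma adjusted p = 0.000769), a 5.45-fold difference, and Ppp1r3g was the 1 gene of the 7 called for it. It was 2.26 and 2.36 within the washing batches, where 3 mice a group did not pass the test (limma adjusted p = 0.0971 and 0.182), and 2.54 without the 2 arrays named above. On CTRL diet this difference was 1.15 (SE 0.436, limma adjusted p = 0.135), and 1.49 and called without replicate 6 of the fed p110αhep+/+ mice, and 1.2 without the 2 arrays named above. Fasting changes within the washing batches were 1.92 and 1.83 in p110αhep-/- mice on CTRL diet and 1.71 and 1.8 on HFD.

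The genotype difference of Ppp1r3g turned with nutritional state on HFD. In fed mice on HFD the gene was lower in p110αhep-/- mice, with a log2 fold change of -1.44 (SE 0.314, limma adjusted p = 0.00042), and in fasted mice on HFD it was higher, with 1.01 (SE 0.325, limma adjusted p = 0.0132). The raw signal in replicates 1, 2 and 6 of fed p110αhep-/- mice on HFD was 73, 69 and 71. Median signals of the arrays were 53 to 71, so all differences of Ppp1r3g that use this group rest on low signals. The fed value was -1.06 and -1.67 within the washing batches (limma adjusted p = 0.0576 and 0.0423) and -1.53 without the 2 arrays named above. The fasted value was 1.19 and 0.69 within the washing batches (limma adjusted p = 0.044 and 0.386), and it did not pass without replicate 2 of the p110αhep-/- mice (0.79, limma adjusted p = 0.07). On CTRL diet the difference was 0.39 in fed mice (SE 0.315, limma adjusted p = 0.42, and 0.35 without the 2 arrays named above) and 1.54 in fasted mice (SE 0.302, limma adjusted p = 0.000163), a 2.9-fold higher level with no overlap that was 1.26 and 1.77 within the washing batches.

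HFD lowered Ppp1r3g in 3 of the 4 comparisons between diets. The log2 fold change was -1.87 in fed p110αhep-/- mice (SE 0.33, limma adjusted p = 8.04e-05), -1.46 in fasted p110αhep+/+ mice (SE 0.302, limma adjusted p = 0.000737) and -1.99 in fasted p110αhep-/- mice (SE 0.324, limma adjusted p = 4e-05), and the diets did not overlap in any of these 3. In fed p110αhep+/+ mice it was -0.05 (SE 0.299, limma adjusted p = 0.931), and -0.09 without the 2 arrays named above. Within the washing batches the 3 called values were -1.59, -1.74 and -1.8 in the first and -2.17, -1.11 and -2.19 in the second, where the first 2 did not pass (limma adjusted p = 0.0753 and 0.183), and the first was -1.97 without the 2 arrays named above. The diet change of fed mice was more negative in p110αhep-/- than in p110αhep+/+ mice by -1.82 (SE 0.445, limma adjusted p = 0.0188), a difference that was called for 1.34% of all genes and for Ppp1r3g alone among the 7. It did not pass without replicate 1 or 2 of fed p110αhep-/- mice on HFD (-1.64 and -1.65, limma adjusted p = 0.0516 and 0.0588), nor within the washing batches (-1.42 and -2.15) or when only these 4 groups were fitted (-1.83, limma adjusted p = 0.062), and was -1.88 without the 2 arrays named above. In fasted mice it was -0.53 (limma adjusted p = 0.535). For p110αhep+/+ mice, the fasting change on HFD was lower than that on CTRL diet by -1.41 (SE 0.425, limma adjusted p = 0.0658), which passed without replicate 3 of the fed mice on CTRL diet (-1.79, limma adjusted p = 0.00897) and was -1.37 without the 2 arrays named above. The differences between the diet changes of fasted mice were called for 1.85% of all genes and those between the fasting changes of p110αhep+/+ mice for 0.893%, with 0 of the 7 by limma in each and 1 of the 7 in each at an unadjusted p under 0.05.

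**Figure D4:**
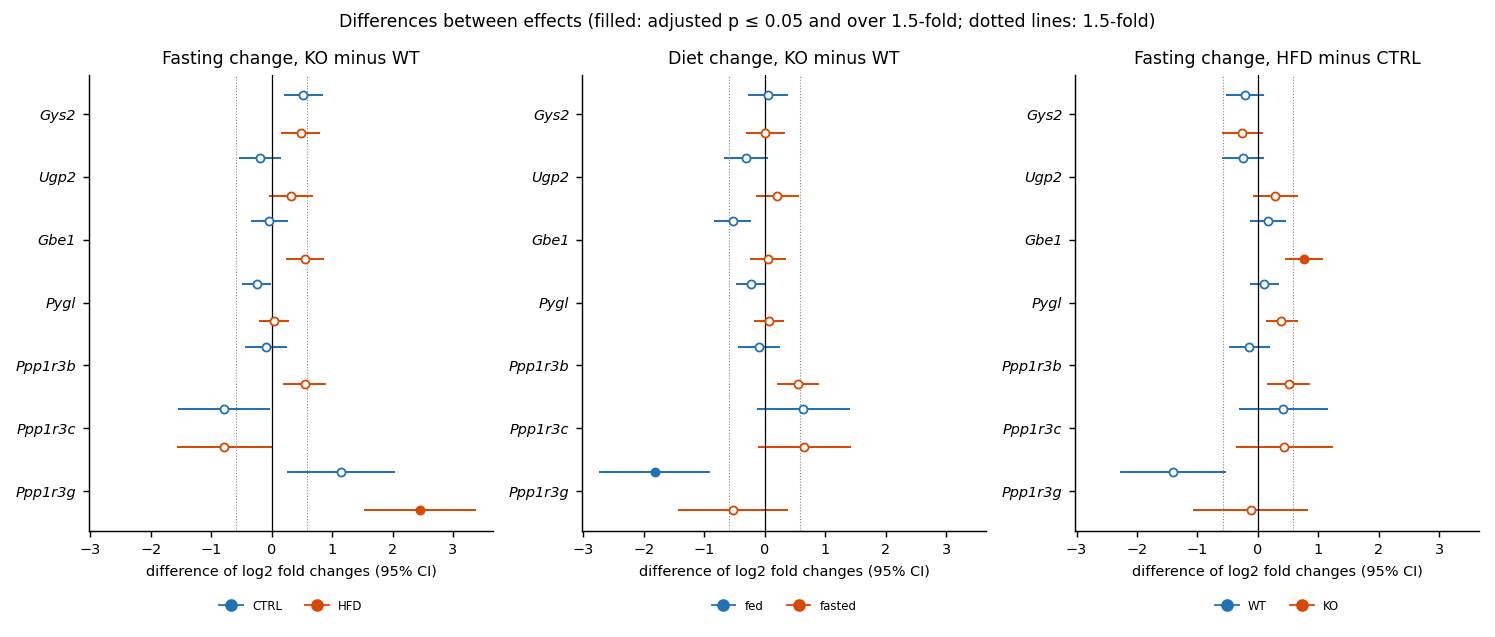
Differences between effects with 95% confidence intervals for the 7 genes (horizontal axis, difference of log2 fold changes), for the fasting change and the diet change of p110αhep-/- minus p110αhep+/+ mice and for the fasting change on HFD minus that on CTRL diet. The 3 filled points, which passed the test and the fold threshold, are Ppp1r3g at 2.45 and -1.82 and Gbe1 at 0.76.

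Ppp1r3b, the liver form of the targeting subunits, varied least between groups. It was called in 2 comparisons, and both rest on fasted p110αhep-/- mice on HFD, whose level was 14.84 to 15.93 (median 15.61). Fed p110αhep-/- mice on HFD had 14.55 to 15.49 (median 14.89), a log2 fold change on fasting of 0.71 (SE 0.126, limma adjusted p = 3.52e-05). Fasted p110αhep+/+ mice on HFD had 14.56 to 15.25 (median 14.82), a genotype difference of 0.71 (SE 0.12, limma adjusted p = 9.92e-06). In both the mice overlapped, because replicate 6 of the shared group stood at 14.84 and its other 5 mice at 15.57 or more. Within the washing batches the fasting change was 1.07 and 0.35 and the genotype difference 1.04 and 0.44, and the second batch, with 3 mice a group, did not pass for either (limma adjusted p = 0.201 and 0.0602). Without the 2 arrays named above the fasting change was 0.75. The other fasting changes were 0.15 to 0.29, and that of p110αhep+/+ mice on CTRL diet passed the adjusted p (0.29, limma adjusted p = 0.0418, and 0.31 without the 2 arrays named above). HFD was accompanied by lower Ppp1r3b under the fold threshold in 3 comparisons, with log2 fold changes of -0.34 in fed p110αhep+/+, -0.44 in fed p110αhep-/- and -0.48 in fasted p110αhep+/+ mice (limma adjusted p = 0.0206, 0.0124 and 0.00224). The diets did not overlap in the first of these, and without the 2 arrays named above the first pair was -0.33 and -0.49. In fasted p110αhep-/- mice it was 0.07 (limma adjusted p = 0.803). The difference between the diet changes of fasted mice was 0.55 (SE 0.164, limma adjusted p = 0.0422), under the fold threshold, and it was called without replicate 4 of the p110αhep+/+ mice on CTRL diet (0.6), replicate 3 of those on HFD (0.65), replicate 2 or 3 of the p110αhep-/- mice on CTRL diet (0.59 and 0.61) or replicate 6 of those on HFD (0.66). On HFD the fasting change was higher in p110αhep-/- than in p110αhep+/+ mice by 0.55 (SE 0.167, limma adjusted p = 0.0566), which did not pass. Without the 2 arrays named above it was 0.6 and called (limma adjusted p = 0.0283), and within the washing batches it was 1 and 0.14 (limma adjusted p = 0.0147 and 0.88). It was also called without replicate 3 or 6 of fed (0.59 and 0.61) or replicate 6 of fasted p110αhep-/- mice (0.68), and without replicate 4 of fed (0.59) or replicate 3 of fasted p110αhep+/+ mice (0.65). The fasting change of p110αhep-/- mice was higher on HFD than on CTRL diet by 0.51 (limma adjusted p = 0.0606), and 0.62 and called without replicate 6 of the fasted mice on HFD. Without the 2 arrays named above it was 0.55 and passed the adjusted p (0.0313) but not the fold threshold.

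Ppp1r3c, the third targeting subunit measured, was the most scattered within groups after Ppp1r3g, with a pooled SD of 0.519 against 0.161 for Pygl. Its lowest group was fasted p110αhep-/- mice on CTRL diet, at 10.04 to 10.36 (median 10.22), where the mice lay close together. Fasted p110αhep+/+ mice on CTRL diet were at 10.61 to 11.9 (median 11.28), all higher, and the genotype difference was -1.04 (SE 0.255, limma adjusted p = 0.00215), a 2.05-fold lower level in p110αhep-/- mice. Fasted p110αhep-/- mice on HFD were at 10.31 to 12.32 (median 11.32), which overlapped with CTRL diet in 1 mouse, and the diet change was 1.18 (SE 0.274, limma adjusted p = 0.00322), 2.26-fold. Within the washing batches the genotype difference was -0.84 and -1.13 (limma adjusted p = 0.0937 and 0.0432) and the diet change 1.3 and 1.25 (limma adjusted p = 0.0785 and 0.0566). None of its fasting changes passed the test, and they differed in sign, with -0.61 in p110αhep-/- mice on CTRL diet (limma adjusted p = 0.0684) and 0.6 in p110αhep+/+ mice on HFD (limma adjusted p = 0.0671). The first, where fed and fasted mice did not overlap, was called without replicate 3 or 4 of the fed mice (-0.76 and -0.71), and the second without replicate 1 or 6 of the fasted mice (0.75 and 0.67), but within the washing batches the second was -0.14 and 1.3. The diet change of fed p110αhep-/- mice was 0.74 (limma adjusted p = 0.076), and 0.94 and 0.84, both called, without replicate 6 of the mice on CTRL diet or replicate 3 of those on HFD, and 0.84 without the 2 arrays named above (limma adjusted p = 0.0381).

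Diet moved few of the 7 genes past the fold threshold. None of the 7 was called by limma between HFD and CTRL diet in fed p110αhep+/+ mice (3.76% of all genes), where 2 had an unadjusted p under 0.05, 1 in fed p110αhep-/- mice (2.32%), 1 in fasted p110αhep+/+ mice (2.81%) and 2 in fasted p110αhep-/- mice (1.89%). These are the Ppp1r3g and Ppp1r3c values above. Gbe1 passed the adjusted p without the fold threshold in 3 comparisons, at 0.35 in fed p110αhep+/+ mice, 0.52 in fasted p110αhep+/+ mice and 0.57 in fasted p110αhep-/- mice (limma adjusted p = 0.00654, 0.000237 and 0.000192), the first of them 0.31 without the 2 arrays named above. In the 2 fasted comparisons every mouse on HFD was above every mouse on CTRL diet, and the last value was called without replicate 2, 3 or 4 of the mice on CTRL diet (0.61, 0.64 and 0.59) or replicate 4 or 6 of those on HFD (0.64 and 0.63). The other Gbe1 probes gave 0.27, 0.55 and 0.6 for the brighter, which passed in all 3, and 0.01, 0.07 and 0.6 for the dimmer, which passed only in the last (limma adjusted p = 0.984, 0.827 and 0.0231). In fed p110αhep-/- mice the main probe had -0.18 (limma adjusted p = 0.309), and the difference between the diet changes of fed mice was -0.53 (SE 0.143, limma adjusted p = 0.0337), called without replicate 3 of the p110αhep+/+ mice on CTRL diet (-0.6) or on HFD (-0.59) and -0.47 without the 2 arrays named above (limma adjusted p = 0.0522). Neither other probe passed for this difference (-0.43 and -0.2, limma adjusted p = 0.0955 and 0.735). The changes with diet share groups with the changes with fasting and genotype, so these comparisons are not independent of each other.

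The genes whose pattern over the 48 arrays was most like that of each gene were found by Pearson's r among 20458 genes with no missing value. For Pygl they included Khk (ketohexokinase, which phosphorylates fructose, r = 0.98) and Fasn (fatty acid synthase, 0.94). For Gbe1 they were Gm30692 (0.94), Tkt (transketolase of the pentose phosphate pathway, 0.93) and Napepld (0.92), and for Ugp2 they were Khk (0.87), Pygl (0.86) and Sdhb (a subunit of succinate dehydrogenase, 0.86). Gys2 was most like Gm32064 (0.86), ENSMUST00000091759 (0.81) and Lepr (the leptin receptor, 0.78), where r with Lepr fell to 0.04 within groups. Ppp1r3b was most like Srgap2, NAP113833-1 and Zfp133-ps (0.9 each, and 0.84 to 0.89 within groups). Ppp1r3c had no close match (Glud1, glutamate dehydrogenase, 0.63, Gstt3 0.61 and Saa4 0.61), and Ppp1r3g was most like Inafm1 (0.79), Bmp2 (a bone morphogenetic protein, 0.76) and Sspn (0.72), with 0.2 to 0.32 within groups.

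Of 30 other genes of glycogen and glucose-6-phosphate metabolism, 28 could be analysed, and 7 of these were called in at least 1 comparison, of which 6 are described. In fasted mice 2 or 3 of the 28 were called in each of the 4 comparisons with fed mice, all lower, where 4.71% to 7.07% of all genes were called. Between genotypes 1 to 3 of the 28 were called in each comparison, where 3.24% to 6.54% of all genes were, and between diets 0 to 2, where 1.89% to 3.76% were. With so few genes, these counts say nothing particular about the list. The median log2 fold change of the 28 stayed between -0.13 and 0.08 in the 12 comparisons, against -0.018 to 0.033 over all genes.

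G6pc (the catalytic subunit of glucose-6-phosphatase, which releases glucose) fell on fasting on HFD, with -1.35 in p110αhep+/+ and -1 in p110αhep-/- mice (limma adjusted p = 1.27e-06 and 0.000958). On CTRL diet its fasting changes were 0.08 and 0.34 and did not pass (limma adjusted p = 0.802 and 0.224), and the fasting change was lower on HFD by -1.43 in p110αhep+/+ and -1.34 in p110αhep-/- mice (limma adjusted p = 0.00364 and 0.00437). G6pc was higher on HFD in fed p110αhep+/+ mice (0.83, limma adjusted p = 0.00236) and lower on HFD in fasted p110αhep+/+ (-0.6, limma adjusted p = 0.0407) and fasted p110αhep-/- mice (-1.19, limma adjusted p = 0.000234). In fasted mice on CTRL diet it was higher in p110αhep-/- mice, by 0.72 (limma adjusted p = 0.00824).

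Nhlrc1 (malin, a ubiquitin ligase that acts with laforin on glycogen) was lower in p110αhep-/- mice in all 4 genotype comparisons, with log2 fold changes of -0.63 to -0.95 (limma adjusted p = 0.00011 to 1.54e-07). It was also called lower on fasting on CTRL diet, by -0.61 in p110αhep+/+ and -0.63 in p110αhep-/- mice (limma adjusted p = 0.000106 and 7.03e-05). It is a dim probe, with a mean level of 7.89. Gyg (glycogenin, which primes new glycogen) was called lower in fed p110αhep-/- mice on HFD (-0.67, SE 0.0727, limma adjusted p = 1.02e-09), where it was 8.87 to 9.29 against 9.69 to 9.93. In the other 3 genotype comparisons its log2 fold changes were -0.58 to -0.41, under the fold threshold (limma adjusted p = 2.64e-08 to 3.46e-05). Gckr was called lower in fasted p110αhep-/- mice on CTRL diet (-0.78, limma adjusted p = 2.54e-09), Slc37a4 (the glucose-6-phosphate transporter) in fasted p110αhep+/+ mice on HFD (-0.59, limma adjusted p = 5.98e-09) and Slc2a2 (the liver glucose transporter) in fasted p110αhep-/- mice on HFD (-0.73, limma adjusted p = 7.56e-05), each against fed mice. Their means were also lower on fasting in the comparisons not called. In p110αhep+/+ mice on CTRL diet Gckr went from 15.67 to 15.3, Slc37a4 from 15.41 to 14.9 and Slc2a2 from 11.88 to 11.47. In p110αhep+/+ mice on HFD Gckr went from 15.85 to 15.3 and Slc2a2 from 11.98 to 11.43. The smallest such fall was that of Slc37a4 in p110αhep-/- mice on HFD, from 15.12 to 15.02.

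**Figure D5:**
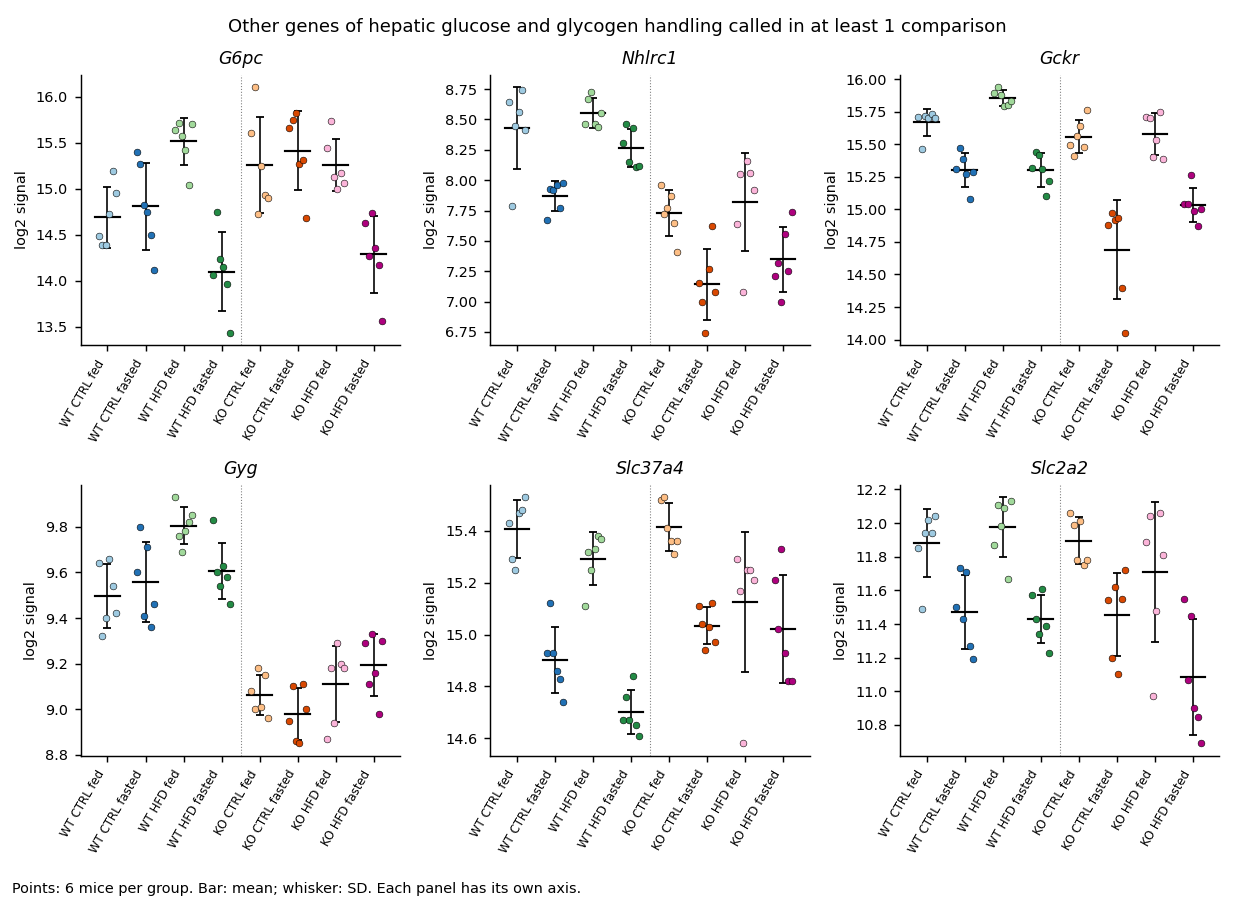
Normalized log2 signal (vertical axis, own scale in each panel) of 6 other pathway genes that were called in at least 1 comparison, with 6 mice per group, the mean as a bar and the SD as a whisker. Nhlrc1 and Gyg are lower in the p110αhep-/- groups, and for Gyg the fed mice on HFD lie at 8.87 to 9.29 in p110αhep-/- and at 9.69 to 9.93 in p110αhep+/+ mice.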

How the data were processed

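Liver RNA of 48 mice (200 ng each, Cy3) was hybridised to Agilent SurePrint G3 mouse arrays and quantified by Feature Extraction 10.10.1.1. The deposited scanner files hold linear intensity per spot, with probe positions on mm9. The table deposited by the authors holds log2 values after their filtering, removal of the washing effect and quantile normalization, and it served as an alternative. From the scanner files, log2 median intensities were taken without local background subtraction, outlier spots were set to missing and spots of a probe were averaged. Of 56605 probes, 30793 well above background on at least 5 of 6 arrays of 1 group were kept, representing 20486 genes by their brightest probe. The washing batch was removed with the groups protected, and arrays were quantile normalized.

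Group means of genotype, diet and nutritional state were fitted over all 48 arrays with limma 3.58.1 and array weights (statmod 1.5.0) in R 4.3.3, for 12 comparisons between groups and 6 differences between such effects. Array weights ran from 0.354 to 1.72, and 0 arrays were identical. Quantile normalization sets the same distribution on every array, so a change shared by most probes would not be seen. The number of arrays limits precision. In simulated data for fasting in p110αhep+/+ mice on CTRL diet (30793 probes), 96% of 100 probes changed by 1 log2 unit and 100% of 100 changed by 2 were recovered, with 0 calls among unchanged probes. The simulated noise was normal, independent between probes and equal over arrays, with no washing batch. Real arrays differ from this, and smaller changes were not simulated.

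The 7 genes, the pathway list and the marker lists were chosen with earlier results of these data known. Named genes are the 7, Pik3ca, for each of the 7 the 3 genes most like it, and for each comparison up to 3 pathway genes with the largest rise and up to 3 with the largest fall among those called, and 2 genes that this rule names are not reported here. Columns with comparisons made by the authors were not used. Alternatives were other signals, background correction, scaling, filters, treatment of the washing batch, slide or replicate number as a block, no weights, only the groups compared, the deposited values, other summaries of probes, no fold threshold, and each array left out. Promoter windows came from RefSeq (GRCm38.p6).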

Additional observations from a re-analysis of the deposited data

Results flagged for a closer look

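Of 56 sets of 6 mice, 4 held a mouse that stood apart from the other 5 by Dixon's test, which flags about 1 in 20 such sets by chance. Gys2 was at 14.95 in replicate 1 of fed p110αhep-/- mice on HFD, where the next mouse was at 15.26 and the highest at 15.44. Ugp2 was at 14.28 in replicate 1 of fed p110αhep-/- mice on CTRL diet, where the next was at 13.93. Pygl was at 14.57 in replicate 3 of fed p110αhep-/- mice on HFD, where the next was at 15.05, and this mouse is also one of the 2 that lay nearer to another group over all genes. Ppp1r3b was at 14.84 in replicate 6 of fasted p110αhep-/- mice on HFD, where the next was at 15.57.

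Effects that differed between groups by the limma test of the difference were the following. The fasting change of Gys2 on CTRL diet was higher in p110αhep-/- mice by 0.52, that of Gbe1 on HFD by 0.55 and that of Ppp1r3g on HFD by 2.45. The diet change of fed mice was lower in p110αhep-/- mice by -0.53 for Gbe1 and by -1.82 for Ppp1r3g, and that of fasted mice was higher by 0.55 for Ppp1r3b. Within p110αhep-/- mice, the fasting change was higher on HFD than on CTRL diet by 0.76 for Gbe1 and by 0.39 for Pygl.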

How the results depend on the processing

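Only the 70 results for single genes with an unadjusted limma p under 0.05 were followed here, and 29 of these were called. Over 17 alternatives besides single arrays left out, 15 of the 29 kept their call under all, and 25 kept it in all 48 fits without 1 array. Most losses came from halving the data, with 7 calls lost and 6 gained in washing batch 1 and 11 lost and 4 gained in washing batch 2, each with 3 mice a group. Among the 70 followed, Ppp1r3c reversed in washing batch 1 for fasting in p110αhep+/+ mice on HFD (-0.14) and for the difference between genotypes in the fasting change on HFD (0.19). Reversals of the results not followed were not counted. Fitting only the groups compared lost 2 calls and gained 1, normexp and the median over probes each lost 1 and gained 1, and a slide block lost 1 and gained 3. The call of Ppp1r3g for fasting in p110αhep+/+ mice on CTRL diet ended under the slide block and with only the groups compared, that of Ppp1r3g for the diet change of fed mice between genotypes with only the groups compared, and that of Gbe1 in fasted mice on CTRL diet between genotypes under normexp and the median over probes. The deposited log2 values lost 0 and gained 0. The cause of these changes was not tested.

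Numbers of the 7 genes called moved as follows. The share of all genes called was not counted for the alternatives, so these numbers cannot be set against it. With no fold threshold they became 5 for fasting in p110αhep+/+ mice on CTRL diet and in p110αhep-/- mice on HFD, 1 and 5 for genotype in fed mice on CTRL diet and fasted mice on HFD, 2, 2, 3 and 4 for diet in fed p110αhep+/+, fed p110αhep-/-, fasted p110αhep+/+ and fasted p110αhep-/- mice, and 1 or 2 for 5 of the 6 differences between effects (0 for the fasting change of p110αhep+/+ mice between diets), with 52 in all 18 comparisons against 29. Genotype in fed mice on CTRL diet gave 1 with normexp, median scaling, washing batch 2 or without the 2 arrays nearer another group, an alternative chosen after seeing the data that gave 33 in all. Washing batch 1 gave 1 for genotype in fed mice on HFD and for diet in fasted p110αhep-/- mice, and 2 for diet in fed p110αhep-/- mice. Washing batch 2 gave 1 for genotype in fasted mice on HFD and 0 for diet in fed p110αhep-/- and fasted p110αhep+/+ mice and for the 3 differences between effects with 1 call. Median scaling and the processed signal gave 2 for diet in fasted p110αhep+/+ mice. Leaving out 1 array gave 2 to 4, 4 to 5, 3 to 4 and 3 to 4 for the 4 fasting comparisons, 0 to 1, 2, 3 to 4 and 2 to 4 for genotype, 0, 1 to 2, 1 and 2 to 3 for diet, and 0 to 3 for the differences between effects.

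Replicate numbers are shared by the groups, but same-numbered mice did not deviate together (mean r 0.019, from -0.34 to 0.32). For 10 of 48 arrays, the mean r with arrays of other groups was highest for their own number. With the replicate block, 30 calls were made in all, with 0 lost and 1 gained.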
